A study of Arabidopsis thaliana with 24 samples.

Results

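The chloroplast of Arabidopsis thaliana keeps a small genome of its own, and the genes described here are those of its protein-coding genes that do not encode parts of the photosynthetic machinery. They were chosen by symbol. Of 69 chloroplast-encoded genes that GEO's platform annotation pairs 1 to 1 with a probe set, the 43 whose symbols begin with psa, psb, pet, atp or ndh, and rbcL, were set aside, and the other 26 were kept, of 13356 genes with such a probe set in all. They were 15 genes for ribosomal proteins (rps2, rps3, rps4, rps14, rps15, rps16, rps18, rps19, rpl14, rpl16, rpl20, rpl22, rpl32, rpl33 and rpl36), 4 for subunits of the plastid RNA polymerase (rpoA, rpoB, rpoC1 and rpoC2) and 7 with other roles (accD, ccsA, cemA, clpP, matK, ycf3 and ycf4). Each had 1 probe set, so no choice among probe sets was made. The rule itself used no measured value, but it was set with earlier results of these data known. A further 8 probe sets of the chloroplast were paired with more than 1 locus and were left out.

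Transcripts were measured on Affymetrix ATH1 arrays in germinating seeds under continuous light. The groups were the pkl mutant with 10 nM uniconazole, the pkl mutant with solvent, the Columbia wild type with 10 nM uniconazole and the Columbia wild type with solvent, with 6 arrays each, called biological replicates by the submitters. All 4 groups were on medium with 0.01% methanol, the solvent. PKL (PICKLE) encodes a chromatin remodelling factor, and uniconazole (uniconazole-P in the sample descriptions) inhibits gibberellin synthesis. The pkl allele and the age of the seeds are not stated in the labels. Whole germinating seeds were extracted, so a higher signal cannot be told apart as more chloroplasts or chloroplast genomes in a seed, more cells that hold them, or more transcript in each. Of 16 fixed marker genes of storage, oil bodies and reserve mobilisation, 3 were named through the platform annotation, OLEO3, PAP85 and ICL. None of the 3 fixed endosperm markers was. The annotation does not list every probe set, so the other markers may still be on the array. The storage protein gene PAP85 moved with the groups, at 2428.5 ± 387 in pkl with uniconazole, 304 ± 76 in wild type with uniconazole, 1000.1 ± 168 in pkl with solvent and 167 ± 30 in wild type with solvent (6 arrays each, ± SD). The oil body gene OLEO3 averaged 4667, 3827, 1384 and 2068 in the same groups, and ICL, for isocitrate lyase, did not pass in any comparison. The part of the seeds' stage in the results below was not tested.

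Chloroplasts transcribe their genes with 2 kinds of RNA polymerase. The plastid-encoded polymerase resembles the bacterial enzyme, with its core made from rpoA, rpoB, rpoC1 and rpoC2, and mainly serves the photosynthesis genes. A phage-type polymerase encoded in the nucleus reads, among others, the rpoB operon and accD. The rps and rpl genes encode proteins of the small and large subunit of the chloroplast ribosome, most other proteins of which are imported from the cytosol. Of the remaining members, accD encodes a subunit of plastid acetyl-CoA carboxylase (fatty acid synthesis), clpP a catalytic subunit of the Clp protease, matK an intron maturase, ccsA a protein of cytochrome c maturation, cemA an inner envelope protein, and ycf3 and ycf4 assembly factors of photosystem I. Chloroplast genes are often transcribed in clusters and lack the stable poly(A) tails of nuclear mRNA. The labels give the labelling of the RNA only as the array maker's protocol.

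Values below are linear MAS5 signals of a probe set, and a log2 change is a difference in log2(signal + 16) from 1 limma fit of all 24 arrays. A gene is said to rise or fall if its Benjamini-Hochberg adjusted p over all 22746 probe sets was under 0.05. Signals of different genes are not compared as transcript levels, since each probe set has its own brightness. The 26 genes all lay well above the bacterial control level of 54.9 (the 95th percentile of 27 probe sets for bacterial transcripts), with the lowest signal of any array at 160.5, for rps14. In each of the 4 comparisons described, 0 of the 26 genes fell.

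With uniconazole, pkl seeds had higher signals than wild type for 11 of the 26 genes (42.3%), against 9.87% of all probe sets higher and 8.69% lower in this comparison. The genes that rose were 8 of 15 for ribosomal proteins, 1 of 4 for RNA polymerase subunits and 2 of 7 of the others. The median log2 change was 0.41 over the 26 genes, 0.50 over the ribosomal, 0.22 over the RNA polymerase and 0.34 over the other genes, 0.46 over the 43 chloroplast photosynthesis genes, and 0.04 over all probe sets.

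Among the ribosomal protein genes, rps14, which encodes a small-subunit protein, had the largest change. Its signals had a lowest, median and highest value of 636, 878 and 1292 in pkl with uniconazole, and of 233.5, 385 and 966 in wild type with uniconazole. The log2 change was 1.08 ± 0.25 (SE; adjusted p = 0.00301), and the groups overlapped through 1 bright wild-type array, number 5, at 966. For rpl33, a large-subunit protein gene, the lowest, median and highest signals were 13167, 13736 and 16415 in pkl, and 6096, 9638 and 11809 in wild type. No wild-type array reached the lowest pkl array, with a log2 change of 0.61 ± 0.15 (adjusted p = 0.00422). The large-subunit gene rpl14 also separated completely, with means of 4024 ± 711 in the mutant and 2510.5 ± 652 in the wild type (SD over 6 arrays, log2 change 0.71 ± 0.19, adjusted p = 0.00937). A separation with all 6 pkl arrays higher was found for these 2 of the 26 genes, and for 4.95% of all probe sets. The reverse, all 6 lower, held for 0 of the 26 and for 4.05%.

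The small-subunit gene rps15 averaged 895 ± 251 in the mutant and 475 ± 212 in the wild type (log2 change 0.98 ± 0.26, adjusted p = 0.00932). The other ribosomal genes that rose were rpl20 (0.64, adjusted p = 0.0215), rps18 (0.56, adjusted p = 0.0297), rpl36 (0.56, adjusted p = 0.0394) and rpl16 (0.50, adjusted p = 0.0323). The 7 that did not pass were rps16 (0.47), rpl32 (0.36), rps2 (0.27), rps3 (0.23), rps19 (0.21), rps4 (0.18) and rpl22 (0.13), all with positive values.

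Of the polymerase genes, rpoB, which encodes the β subunit, was the one that rose. It had a lowest, median and highest signal of 952, 1130.05 and 1468 in pkl, and of 426, 693 and 1170.2 in wild type, where array 5 was again the highest. The log2 change was 0.77 ± 0.17 (adjusted p = 0.00133), the smallest adjusted p among the 26 genes here. For rpoC2, the β″ subunit gene, the values were 1369.6, 2080.2 and 2816 in pkl, and 1005, 1594.5 and 1895 in wild type, and its log2 change of 0.35 did not pass (adjusted p = 0.172). The α subunit gene rpoA had a log2 change of -0.004, with a 95% interval from -0.29 to 0.29, and rpoC1, for the β′ subunit, had 0.09 (adjusted p = 0.767).

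Among the other genes, accD had a lowest, median and highest signal of 1836, 2159 and 2465 in the mutant and of 856.5, 1439 and 1984 in the wild type (log2 change 0.62 ± 0.14, adjusted p = 0.00305). The photosystem I assembly gene ycf4 had 4994, 5246 and 5633 in the mutant, a narrow range, and 2292, 3989 and 5362 in the wild type (log2 change 0.52 ± 0.15, adjusted p = 0.0154). For both genes wild-type array 5 was again the 1 array that reached into the pkl range. ycf3 (0.63, adjusted p = 0.121), ccsA (0.34), cemA (0.26), clpP (0.20) and matK (0.02) did not pass. For matK the 95% interval was -0.18 to 0.21.

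The count of 11 rested in part on 1 wild-type array. Without wild type with uniconazole array 2, which was the lowest of its group for 16 of the 26 genes, 6 genes passed. Over all probe sets 1901 were then higher and 1818 lower, in place of 2246 and 1976. With the 3′/5′ ratio of the GAPDH controls as a covariate, an alternative chosen after seeing the data, 7 passed. Over all probe sets 1754 were higher and 1495 lower in that fit. With the mean of the 43 chloroplast photosynthesis genes as a covariate, 0 of the 26 passed, and the value of rpl20 turned to -0.0801 (adjusted p = 0.796). Of all probe sets, 4.52% were higher and 4.73% lower in that fit. The covariate was itself higher in pkl (11.85 against 11.30), so the fit also takes out changes shared with it. That ratio (log2), a measure of RNA integrity, was 0.29 ± 0.05 in the mutant and 0.36 ± 0.06 in the wild type (SD over 6 arrays). By a two-sided exact permutation test p was 0.0606, or 0.242 after adjustment for 20 comparisons of quality measures. The part of the GAPDH ratio in the result was not tested beyond its use as a covariate. The median signal of an array averaged 364.6 ± 5.4 in the mutant and 344.5 ± 18.5 in the wild type. By the same test p was 0.00649, or 0.0649 after adjustment. A fit with arrays scaled to one median is given below.

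**Figure D1:**
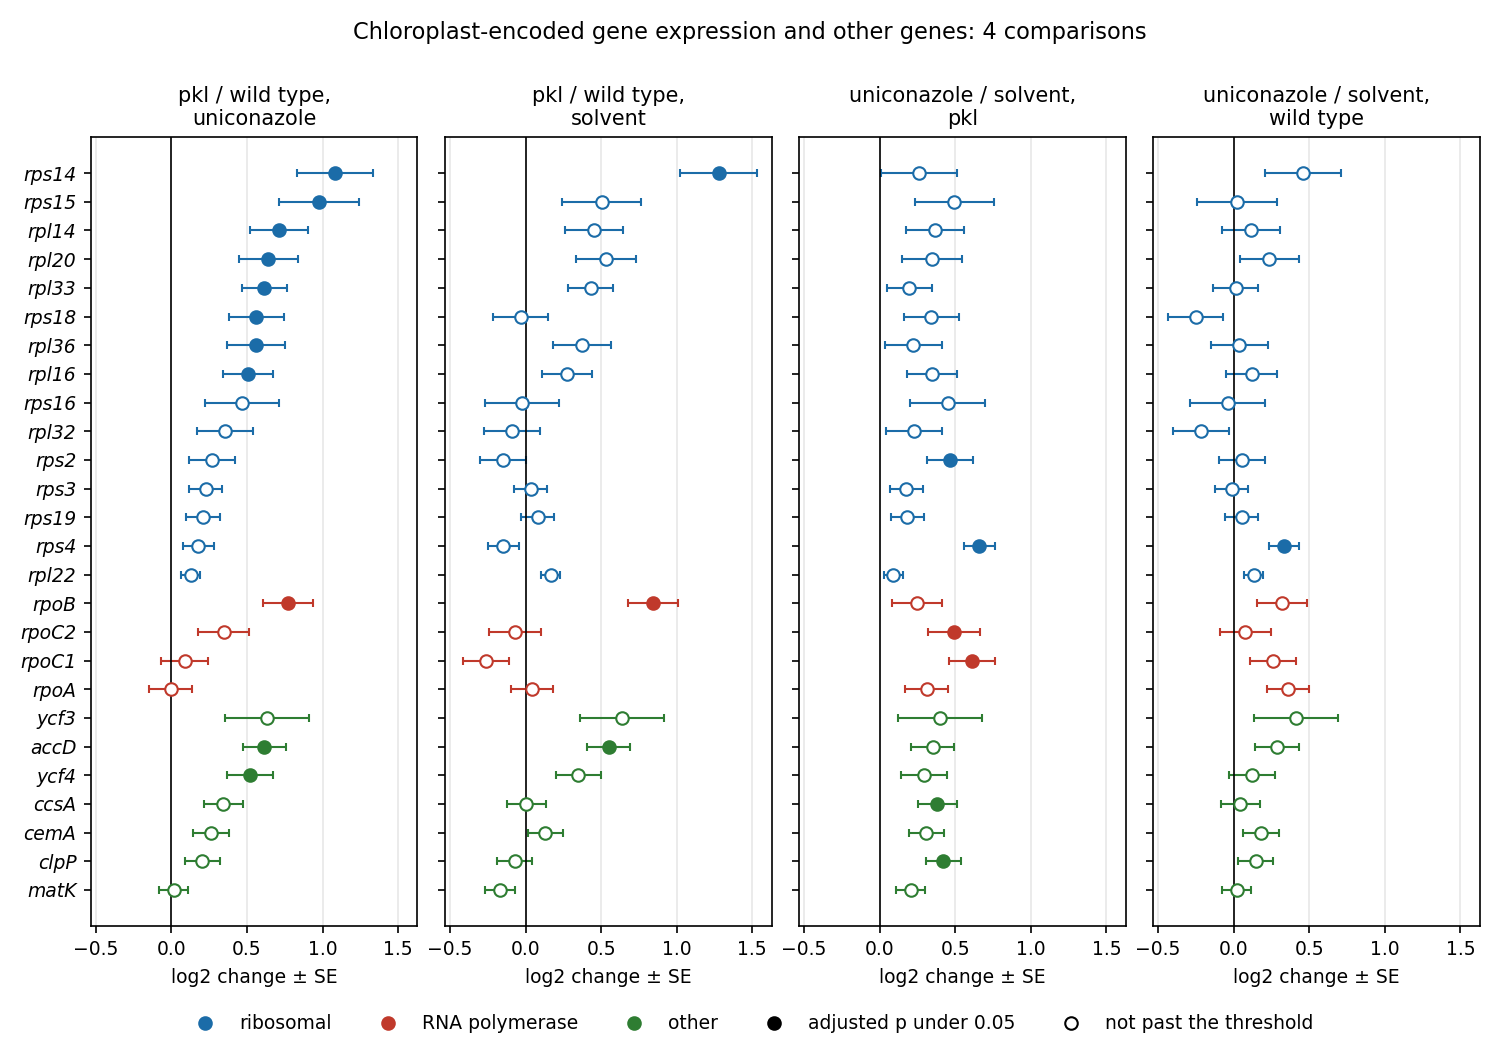
Log2 change ± SE of each of the 26 genes (rows, coloured by class) in 4 comparisons (panels), with filled circles for an adjusted p under 0.05. The filled genes lie right of 0 in every panel, and there are 11, 3, 6 and 1 of them from left to right.

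In solvent, 3 of the 26 genes were higher in pkl than in wild type (11.5%), against 6.78% of all probe sets higher and 4.97% lower, and there was 1 from each class. They were rps14, rpoB and accD, which also rose in pkl with uniconazole, in arrays that the comparisons do not share. The median log2 change was 0.11 over the 26 genes, with 17 positive, 0.21 over the chloroplast photosynthesis genes and 0.00 over all probe sets.

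The signals of rps14 had a lowest, median and highest value of 492, 762 and 1039 in pkl with solvent, and of 160.5, 327 and 399 in wild type with solvent. The log2 change was 1.28 ± 0.25 (adjusted p = 8.66e-04). For rpoB the values were 763, 983 and 1248 in the mutant, and 463, 526 and 624.7 in the wild type (log2 change 0.84 ± 0.17, adjusted p = 8.00e-04). For both genes the groups did not overlap. All 6 pkl arrays were higher for 3.71% of all probe sets, and all 6 lower for 2.58% of them and 0 of the 26 genes. The values of accD were 1234, 1699.75 and 2085 in the mutant, and 872, 1179 and 1348 in the wild type (log2 change 0.55 ± 0.14, adjusted p = 0.011), with 5 of 6 pkl arrays above all wild-type arrays.

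Nearest to the threshold among the rest were 3 large-subunit genes, rpl33 with a log2 change of 0.43 (adjusted p = 0.0617), rpl20 with 0.53 (adjusted p = 0.0802) and rpl22 with 0.17 (adjusted p = 0.0871). The most negative values were those of rpoC1 (-0.26, adjusted p = 0.314), matK (-0.17), rps4 (-0.15) and rps2 (-0.15), none of which passed. Leaving out wild type with solvent array 3 or array 5 gave 5 genes in place of 3. Over all probe sets 1562 and 1453 were then higher, in place of 1542. With arrays scaled to one median 3 genes passed, and over all probe sets 1131 were higher and 1437 lower, in place of 1542 and 1130.

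**Figure D2:**
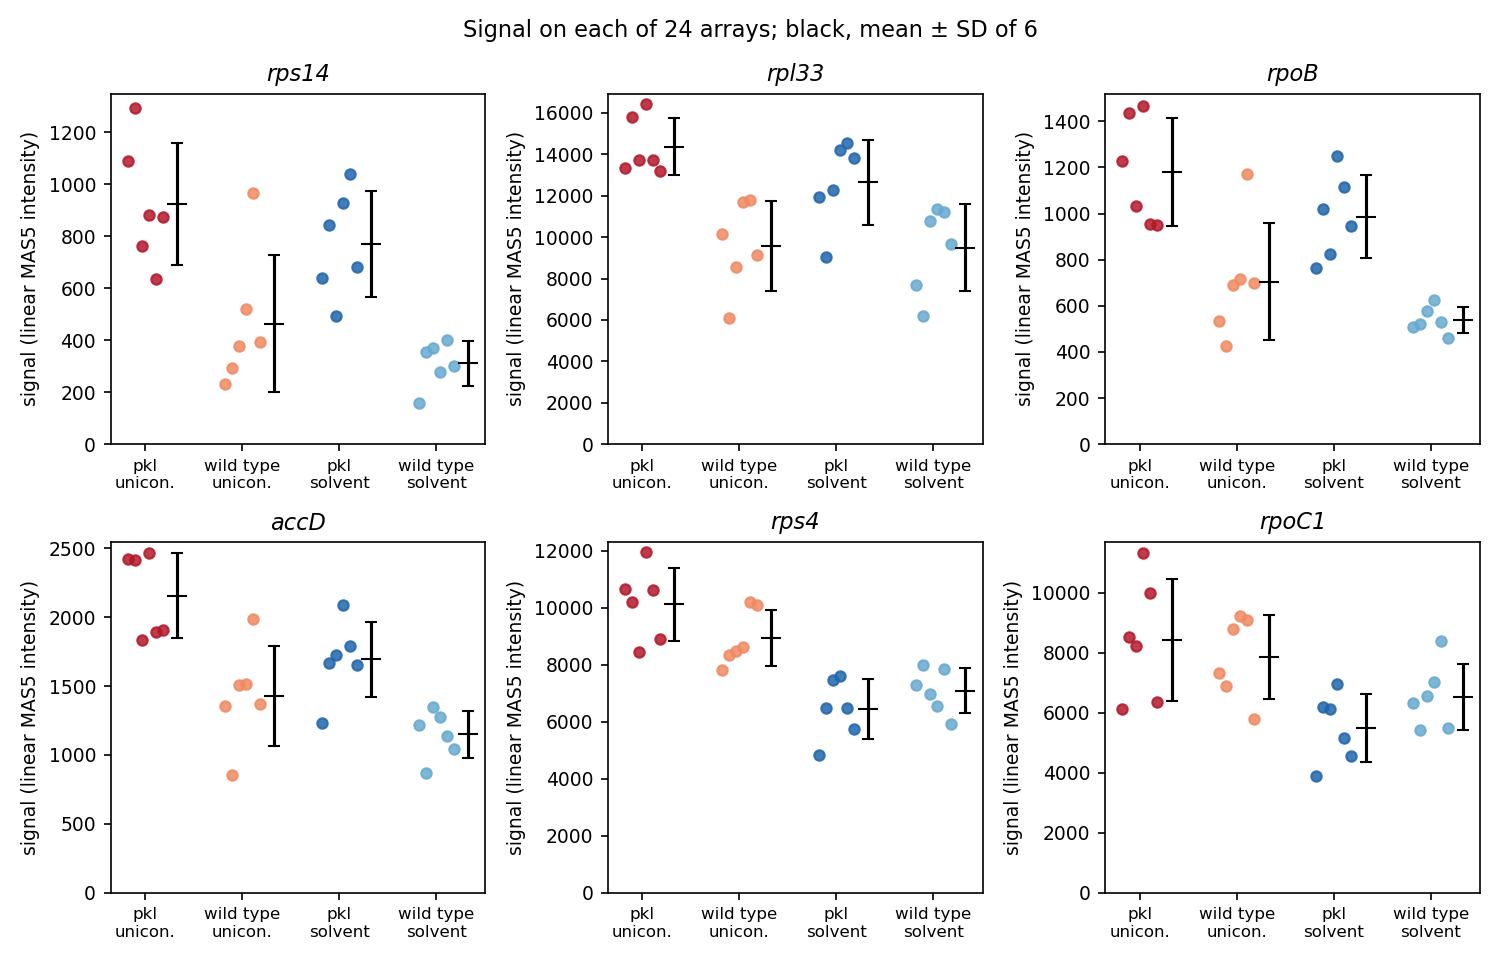
Linear signal of 6 genes (panels) on each array, by group, with the mean ± SD of 6 arrays in black. With solvent, rps14 and rpoB show no overlap between pkl and wild type, while rps4 separates pkl with uniconazole from pkl with solvent.

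Uniconazole was then compared with solvent within each genotype. In pkl, 6 of the 26 genes rose with uniconazole (23.1%), against 11.4% of all probe sets higher and 10.6% lower. They were rps4 and rps2 of the small subunit, rpoC1 and rpoC2 of the polymerase, and clpP and ccsA. All 26 genes had positive values, from 0.09 for rpl22 to 0.66 for rps4, with a median log2 change of 0.34, against 0.40 over the 43 chloroplast photosynthesis genes and 0.02 over all probe sets.

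The signals of rps4 had a lowest, median and highest value of 8464, 10407 and 11959 in pkl with uniconazole, and of 4846, 6494 and 7616 in pkl with solvent. All treated arrays lay above all solvent arrays, as for 6.84% of all probe sets (6.0% had all 6 lower), and the log2 change was 0.66 ± 0.10 (adjusted p = 1.67e-05). For rpoC1 the values were 6108, 8376 and 11317 with uniconazole, and 3906, 5642 and 6963 with solvent, with 4 of 6 treated arrays above all solvent arrays (log2 change 0.61 ± 0.15, adjusted p = 0.00391). clpP averaged 14782 ± 1708 in treated and 11085 ± 1683 in solvent arrays (SD over 6 arrays, log2 change 0.42 ± 0.12, adjusted p = 0.00821). The changes of rpoC2 (0.49, adjusted p = 0.0382), rps2 (0.47, adjusted p = 0.027) and ccsA (0.38, adjusted p = 0.0341) were close to the threshold.

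The 3 genes that rose in pkl with either treatment did not pass here, with values of 0.25 for rpoB (adjusted p = 0.337), 0.26 for rps14 (adjusted p = 0.551) and 0.35 for accD (adjusted p = 0.086). The median signal of an array averaged 364.6 ± 5.4 among treated and 345.1 ± 8.5 among solvent arrays of pkl (SD over 6 arrays, exact permutation p = 0.00216, adjusted p = 0.0433). With arrays scaled to one median 3 of the 26 genes rose, rps4, rpoC1 and clpP, and over all probe sets 1747 were higher and 3169 lower, in place of 2594 and 2405. That scaling gave 1570 higher and 2830 lower for pkl with uniconazole, in place of 2246 and 1976, with 10 of the 26 genes higher. For uniconazole in pkl, leaving out pkl with uniconazole array 2 or array 4, or pkl with solvent array 6, also gave 3 genes, as did the GAPDH ratio as a covariate. Over all probe sets these gave 2396, 2283, 2339 and 2384 higher, in place of 2594.

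In wild type, rps4 was the 1 gene of 26 that rose with uniconazole (3.85%), against 9.07% of all probe sets higher and 7.43% lower. Its lowest, median and highest signals were 7828, 8552 and 10210.5 with uniconazole, and 5911, 7133 and 7983 with the solvent (log2 change 0.33 ± 0.10, adjusted p = 0.0238). Of the treated arrays, 5 of 6 lay above all solvent arrays. Complete separation was found for 0 of the 26 genes, against 4.04% of all probe sets with all 6 higher and 3.14% with all 6 lower. The next smallest adjusted p was that of rpoA, with 6601, 7575 and 11067 with uniconazole and 5185, 6359 and 8027 with solvent (log2 change 0.36 ± 0.14, adjusted p = 0.0855). The median log2 change was 0.11 over the 26 genes, 0.29 over the 4 polymerase genes, 0.05 over the ribosomal genes and -0.02 over all probe sets. The lowest values were those of rps18 (-0.25) and rpl32 (-0.21), which did not pass. The call of rps4 was lost without wild type with uniconazole array 5 or array 6, without wild type with solvent array 4 or array 6, with arrays scaled to one median and with the GAPDH ratio as a covariate, with 0 genes passing in each case. That scaling gave 1411 probe sets higher and 2187 lower, in place of 2064 and 1691. Leaving out those arrays gave 1914, 1829, 1818 and 1744 probe sets higher, in the same order, and the GAPDH ratio gave 1374. Without wild type with uniconazole array 2 or wild type with solvent array 5, 2 genes passed.

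Whether the pkl effect differed between uniconazole and solvent was asked with the interaction term of the fit. For 0 of 26 genes did it pass, against 0.0703% of all probe sets in each direction. The smallest adjusted p values were those of rps18 (0.59, adjusted p = 0.563) and rps4 (0.33, adjusted p = 0.575). The lowest, median and highest signals of rps18 were 4056, 5619.95 and 6628 in pkl with uniconazole and 2543, 3459 and 6359.7 in wild type with uniconazole, and 3606, 4374 and 4903 in pkl with solvent and 2861.5, 4512 and 5969.6 in wild type with solvent. For 21 of 26 genes the value was positive, that is, the pkl effect was larger with uniconazole, with a median of 0.19 over the 26 genes and 0.02 over all probe sets. Since no gene passed, the larger count with uniconazole than in solvent is not shown to be a difference between the treatments.

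The 3 classes were then set side by side as the mean log2(signal + 16) of their genes on each array, as a description with no test. The medians over arrays of the ribosomal genes were 12.25 in pkl with uniconazole, 11.74 in wild type with uniconazole, 11.95 in pkl with solvent and 11.70 in wild type with solvent. Those of the RNA polymerase genes were 11.80, 11.47, 11.39 and 11.26 in the same groups, and those of the other genes 12.42, 12.14, 12.18 and 11.95. All 3 classes had their highest group median in pkl with uniconazole and their lowest in wild type with solvent. They differed in the middle groups. For the polymerase genes wild type with uniconazole was above pkl with solvent, while for the ribosomal genes, as for the photosynthesis genes (11.28 and 11.46), it was below. The arrays of these groups overlapped in each case, and single genes differed from their class. By mean signal rpoB was lower in wild type with uniconazole (705 against 987), unlike rpoA, rpoC1 and rpoC2. Of the ribosomal genes, rps2, rps4 and rps16 were higher there and the others lower.

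**Figure D3:**
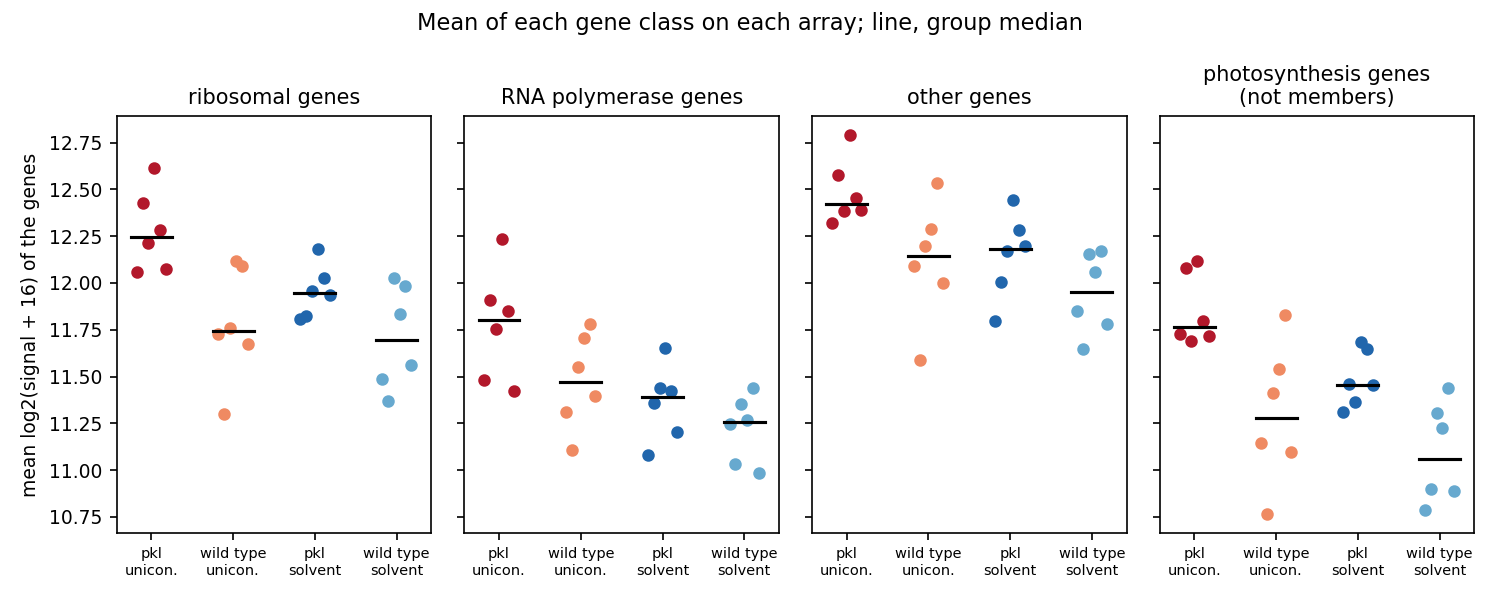
Mean log2(signal + 16) of the genes of each class (panels) on each array, by group, with the group median as a line. Pkl with uniconazole has the highest median in each panel, at 12.25, 11.80 and 12.42 for the ribosomal, RNA polymerase and other genes.

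Arrays within a group differed in most members at once. In pkl with uniconazole, array 4 was the highest of 6 for 25 of the 26 genes, and array 1 the lowest for 13. In wild type with uniconazole, array 2 was the lowest for 16, and arrays 4 and 5 were the highest for 12 each. In pkl with solvent, array 4 was the highest for 15 and array 1 the lowest for 11, and in wild type with solvent array 5 was the highest for 11 and array 2 the lowest for 14. The mean over all 26 genes ranged from 12.04 to 12.60 on the log2 scale among pkl arrays with uniconazole, and from 11.35 to 12.16 among wild-type arrays with uniconazole. The counts of genes that passed therefore do not stand for that many independent observations.

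The size of the change went with the signal of the probe set. Across the 26 genes, which were measured on the same arrays and are not independent, the log2 change of pkl with uniconazole and the log2 mean signal had Pearson's r = -0.80 (Spearman's rho = -0.81), and that of pkl in solvent r = -0.68 (rho = -0.59). For uniconazole in pkl r was -0.27 (rho = -0.37) and in wild type -0.33 (rho = -0.22). The 6 genes with mean signals over 10000, which were clpP, matK, rpl22, rpl33, rps19 and rps3, had a median log2 change of 0.21 in pkl with uniconazole. The 8 genes with mean signals up to 2000, among them rps14, rps15, rpoB and accD, had 0.64. The part of probe brightness in these sizes was not tested.

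A fit with the mean of the 43 chloroplast photosynthesis genes as a covariate asks which of the 26 genes changed by more or less than that mean would carry along. In solvent this mean, the photosynthesis score, ranged from 11.31 to 11.68 in pkl and from 10.79 to 11.44 in wild type. The ranges shared little, so the values below rest largely on a slope fitted over all groups. In pkl with solvent rps14 (0.73 ± 0.21 SE, adjusted p = 0.0249) and rpoB (0.44 ± 0.12, adjusted p = 0.0154) were higher than in wild type in this fit, and 4.98% of all probe sets were. The small-subunit gene rps16 (-0.64 ± 0.16, adjusted p = 0.0129), rpoC1 (-0.55 ± 0.14, adjusted p = 0.0108), the maturase gene matK (-0.36 ± 0.08, adjusted p = 0.00583) and the protease gene clpP (-0.31 ± 0.10, adjusted p = 0.044) were lower in this fit, against 4.33% of all probe sets. Without the covariate these genes did not pass. Their values were then -0.02 for rps16 (adjusted p = 0.974), -0.26 for rpoC1 (0.314), -0.17 for matK (0.306) and -0.07 for clpP (0.786). In pkl, rps4 was the 1 gene higher with uniconazole in this fit (0.55 ± 0.11, adjusted p = 4.91e-04), against 9.99% of all probe sets higher and 10.4% lower. The scores of these groups did not overlap, at 11.688 to 12.116 with uniconazole and 11.312 to 11.684 with solvent. The value of rps4 therefore extends a slope fitted over all groups and does not compare arrays of equal score. In pkl with uniconazole 0 of the 26 genes passed, as given above.

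The values of neighbouring genes are given next as a description with no test, since the pairs were picked after their values were seen. On the chloroplast chromosome rps2, rpoC2, rpoC1 and rpoB lie next to each other, and the 3 rpo genes are known as 1 operon that is read from the rpoB end. In solvent the pkl effect was 0.84 for rpoB, -0.26 for rpoC1, -0.07 for rpoC2 and -0.15 for rps2. The log2 ratio of rpoB to rpoC1 on an array was -2.45 ± 0.25 in the mutant and -3.55 ± 0.21 in the wild type (SD over 6 arrays), a difference of 1.11 ± 0.13 (SE). For rpoB to rpoC2 the difference was 0.91 ± 0.18. With uniconazole the pkl differences of these ratios were 0.69 ± 0.23 and 0.43 ± 0.20.

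A second pair of neighbours, rpl33 and rps18, had pkl effects of 0.43 and -0.03 in solvent. The log2 ratio of rps18 to rpl33 was -1.56 ± 0.20 in pkl and -1.10 ± 0.29 in wild type, a difference of -0.46 ± 0.15. With uniconazole it was -1.42 ± 0.16 in pkl and -1.37 ± 0.32 in wild type. In the long ribosomal cluster from rpoA to rps19, the pkl effects in solvent were 0.04 for rpoA, 0.37 for rpl36, 0.45 for rpl14, 0.28 for rpl16, 0.04 for rps3, 0.17 for rpl22 and 0.08 for rps19, and none passed. With uniconazole rpl36, rpl14 and rpl16, which lie in the middle of this run, passed and the genes on either side did not. The gene rps14 lies beside psaB and psaA, whose pkl effects in solvent were -0.09 (adjusted p = 0.766) and 0.35 (adjusted p = 0.223), against 1.28 for rps14. The gene rps15 lies beside ndhH, a photosynthesis gene, and here the values were alike in direction. With uniconazole ndhH rose in pkl by 0.82 (adjusted p = 0.0158) and rps15 by 0.98 (adjusted p = 0.00932), and in solvent they had 0.45 (adjusted p = 0.252) and 0.50 (adjusted p = 0.253).

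**Figure D4:**
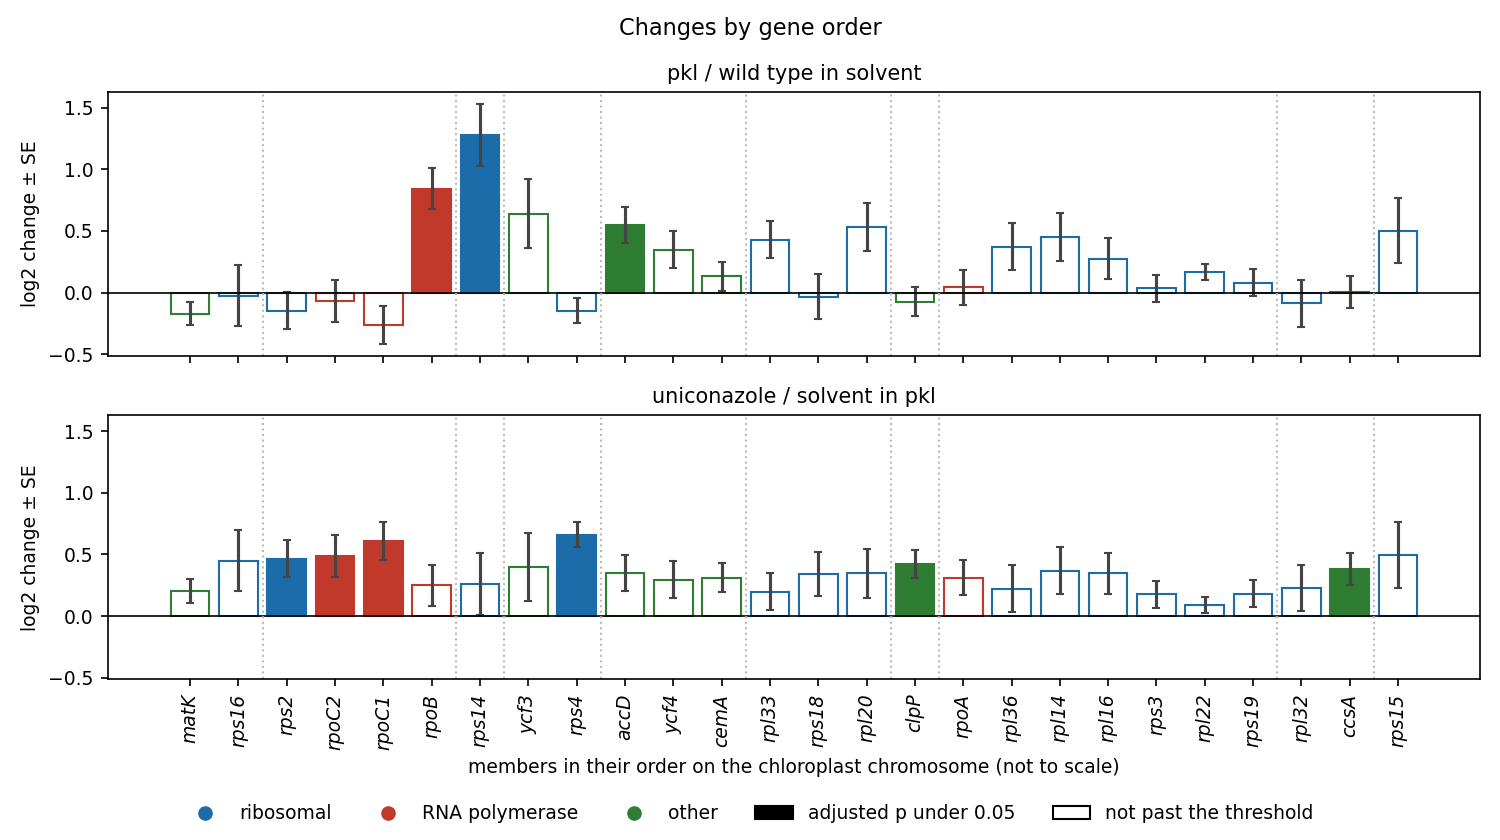
Log2 change ± SE of the 26 genes in their order on the chloroplast chromosome, for pkl over wild type in solvent (top) and uniconazole over solvent in pkl (bottom), filled where the adjusted p was under 0.05 and with dotted lines where more than 1 protein-coding gene lies between members. In the run rps2, rpoC2, rpoC1 and rpoB, rpoB is filled at the top (0.84) and the other 3 at the bottom (0.47, 0.49 and 0.61).

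Chloroplast ribosomes, the Clp protease and the assembly of photosynthetic complexes also need proteins encoded in the nucleus, for which lists had been drawn up. The lists of 6 sigma factors, 12 polymerase-associated proteins and 4 acetyl-CoA carboxylase subunits had 0 members named through the platform annotation. The nuclear partners of the plastid polymerase were therefore not analysed here. That annotation does not list 8730 of the 22746 probe sets tested, so a gene it does not name may still be on the array. RPOT2, for a separate, phage-type polymerase of organelles, was named and did not pass in any comparison. Of 30 nuclear genes for chloroplast ribosomal proteins 6 were named. In pkl with uniconazole, where 9.87% of all probe sets were higher and 8.69% lower, 0 of these 6 rose and 1 fell, RPL34, with 12401 ± 616 in the mutant and 15469 ± 1193 in the wild type (SD over 6 arrays, log2 change -0.32 ± 0.06, adjusted p = 4.11e-04), and their median log2 change was -0.16, against 0.50 for the 15 chloroplast-encoded genes. In pkl with solvent, where 4.97% of all probe sets were lower, RPL34 again fell (-0.18, adjusted p = 0.046), with a median of -0.17 over the 6 genes. Whether such short lists differ from these shares was not tested.

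Of 4 nuclear Clp subunit genes named, CLPT1 (-0.26, adjusted p = 0.0085) and CLPT2 (-0.23, adjusted p = 0.04996), which encode accessory proteins of the Clp core, fell in pkl with uniconazole, and 0 passed in solvent. Of 3 genes for partners in cytochrome c maturation and photosystem I assembly, CCS1, which acts with the ccsA protein, fell in pkl with uniconazole, with 1158.5 ± 101 in the mutant and 1513 ± 143 in the wild type (log2 change -0.38 ± 0.07, adjusted p = 1.97e-04). Of 3 nuclear photosynthesis markers named, LHCB4.2 and RCA were lower in pkl with uniconazole as well (-0.87 and -0.34), against 8.69% of all probe sets, and LHCB4.1 did not pass (-0.26). With solvent LHCB4.2 was again lower in pkl (-1.17, adjusted p = 1.39e-04), against 4.97% of all probe sets, and RCA (-0.32) and LHCB4.1 (-0.33) did not pass.

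Several of these nuclear genes rose with uniconazole in both genotypes. In pkl 3 of the 6 ribosomal protein genes rose, RPS6 (0.40), RPL5 (0.32) and RPS10 (0.23), against 11.4% of all probe sets higher. In wild type 4 did, RPL5 (0.28), RPL34 (0.24), RPS10 (0.23) and RPL3 (0.19), against 9.07% of all probe sets higher. The PSI assembly gene PYG7 rose in pkl (0.24) and in wild type (0.28), and CCS1 (0.32) and CLPT1 (0.24) rose in wild type. All 3 nuclear photosynthesis markers rose in both genotypes. The values were 1.22 in pkl and 0.92 in wild type for LHCB4.2, 0.71 and 0.64 for LHCB4.1, and 0.41 and 0.43 for RCA. The median log2 change of the 6 nuclear ribosomal genes with uniconazole was 0.22 both in pkl and in wild type, where the 15 chloroplast-encoded ribosomal genes had 0.34 in pkl and 0.05 in wild type.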

How the data were processed

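The deposited table holds linear probe set intensities of 24 ATH1 arrays, made by the authors with MAS5, per the submitters' processing notes (version and settings not given in the sources used here). The mean after trimming 2% at each end was 1000.1 on every array. After 64 Affymetrix controls were left out, 22746 probe sets were tested. Genes were named through GEO's platform annotation and RefSeq's gene table (TAIR10.1), used also for gene order. No coordinates or sequences are given.

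Log2(signal + 16) was fitted with limma 3.58.1 in R 4.3.3 (lmFit, then eBayes with trend, on 20 residual degrees of freedom) over 4 groups of 6, with 5 contrasts, two-sided p-values and Benjamini-Hochberg adjustment over all probe sets at 0.05. P-values set a group difference against the spread between arrays within groups, which eBayes moderates with the trend over all probe sets. The number of arrays limits the precision. The fit was also run on simulated data with changes put into pkl with uniconazole. Noise there was independent between probe sets, unlike in the real arrays, where most members shifted together, so no conclusion is drawn from it. Quality measures were compared with exact permutation tests, and ratios of neighbouring genes are descriptions. The alternatives were other offsets, a filter on low signal, other scalings, the set number as a block, no variance trend, covariates and leaving out each array. Every gene of the set was named, and arrays' values were given for those with the smallest adjusted p. The members and lists were chosen with earlier results of these data known.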

Additional observations from a re-analysis of the deposited data

Results flagged for a closer look

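In each group of 6 arrays the highest and lowest value was checked for a gap to its neighbour that was large against the group's range, for the 26 genes in 4 groups and for 5 quality measures. Of 124 such groups 3 stood out, and chance alone gives about 1 in 20. The signal of rps18 was 6359.7 on wild type with uniconazole array 4, with the next highest at 3973. The signal of rpl36 was 9471.3 on pkl with uniconazole array 4, with the next highest at 7249, and this array was the highest of its group for 25 of the 26 genes. The log2 3′/5′ ratio of the ubiquitin controls was 0.56 on pkl with uniconazole array 6, with the next lowest at 0.76.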

How the results depend on the processing

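Of 26 genes, 11 rose in pkl with uniconazole, 3 in pkl with solvent, 6 with uniconazole in pkl and 1 with uniconazole in wild type. Leaving out 1 array at a time gave 6 to 12, 3 to 5, 3 to 8 and 0 to 2, and 0 throughout for the interaction. Offsets of 1 and 64 changed none of these counts, and the filter on low signal and the fit without a variance trend kept each within 1.5 times. Quantile normalization gave 5 in pkl with solvent and 2 with uniconazole in wild type, and one median for all arrays gave 3 with uniconazole in pkl and 0 in wild type. With the chloroplast photosynthesis score as a covariate the counts were 0, 6 (2 higher and 4 lower), 1 and 0, and rpl20 in pkl with uniconazole reversed to -0.0801 (adjusted p = 0.796). That covariate itself differed between the groups, and it takes out what the members share with the photosynthesis genes. Of alternatives chosen after seeing the data, the GAPDH ratio gave 7 in pkl with uniconazole, 3 with uniconazole in pkl and 0 in wild type, and the percentage of an array's probe sets below 16 gave 5 in pkl with solvent. The causes were not tested. The calls of rps14 and rpoB in solvent and of rps4 with uniconazole in pkl held under all 35 alternatives. Leaving out an array of a group outside a comparison keeps its log2 change, so those alternatives could hardly have lost a call. The set number as a replicate block gave 14, 6, 8 and 1. The correlation of same-numbered arrays' deviations was over 0.1 in 7 of 36 pairs, from -0.09 to 0.18, and in 10 of the 36 the same-numbered array was the best match in the other group, so the sets are not treated as pairs. No gene had a second probe set to try.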
